A study of Mus musculus with 2 samples.

Results

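CD8 T cells that carried effector transcripts and few interferon-induced transcripts were examined in CD45+ cells (leukocytes and microglia) sorted from the brains of twitcher (twi) mice and their WT littermates. A cell was taken when it held at least 1 UMI of *Cd8a* or *Cd8b1*, at least 1 of *Cd3d*, *Cd3e* or *Cd3g*, at least 1 of *Cxcr6*, *Gzmk* or *Gzmb*, and at least 2 of *Ccl5*, with no *Cd4*. It also had to hold fewer than 4 UMIs summed over the interferon-induced genes *Ifit1*, *Ifit3*, *Usp18* and *Rsad2*, and fewer than 2 UMIs each over B cell (*Cd79a*, *Cd79b*), NK (*Klra1*, *Klra7*, *Klrb1c*) and cycling (*Mki67*, *Top2a*, *Birc5*) transcripts. Neutrophil transcripts (*S100a8*, *S100a9*) had to stay under 1% of its UMIs, and mitochondrial transcripts at or under 15%. Of 2478 cells within the mitochondrial limit, 172 met the rule, 7 of 1271 in the WT library and 165 of 1207 in the twi library. The cells were thus selected on these transcripts, and the values of the rule's own genes are given as a description.

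The study compared galc-/- (twi) with galc+/+ (WT littermate) C57Bl/6 mice at postnatal day 21, untreated, with brain cells pooled from 2 to 3 animals into 1 library per genotype. Each library was made with 10x Genomics 3′ v2 chemistry, so a UMI counts 1 captured mRNA molecule near its 3′ end. The twi allele removes galactosylceramidase from every cell of the animal, so the T cells themselves lack it too. The WT library held 3749714 UMIs (median 2216 per cell) and the twi library 4807539 (median 3149.5), and the effector CD8 cells held 26934 (median 3025) and 681781 (median 3874). With 1 library per genotype there was no replicate, no test could be made, and all intervals are 95% intervals of counting error alone. No cell barcode was shared between the libraries. *Galc* itself had 4 UMIs over all WT cells and 8 over all twi cells, and at 0 and 2 in the effector CD8 cells. These counts come from the 3′ end and carry no information on the point mutation, so the genotype labels rest on the submitters alone.

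Effector CD8 T cells kill target cells by releasing perforin and granzymes, serine proteases stored in cytotoxic granules. *Gzmb* encodes the apoptosis-inducing granzyme B, *Gzma* the tryptase granzyme A, and *Gzmk* granzyme K, which marks T cells with a memory-like program in many inflamed tissues. *Cxcr6* is a chemokine receptor of tissue-lodged T cells, and *Ccl5* encodes a chemokine that activated and memory CD8 cells store and secrete. Type I interferon induces genes such as *Isg15* and *Ifit3* in T cells as in most cells.

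The rule fixed the CD8, *Cd4*, B cell and in part the NK markers of the cells, so their values are a description and no check of the label. In twi, 157 of 165 cells carried *Cd8a* (a median of 3 UMIs, from 0 to 13) and 152 carried *Cd8b1* (a median of 5, from 0 to 19). In WT, 6 of 7 cells carried *Cd8a* (a median of 1, from 0 to 3) and 6 carried *Cd8b1* (a median of 2, from 0 to 12). Both libraries had cells with 1 CD8 chain alone. Transcripts of other cell types were rare but present. The 6 NK markers summed to 67 UMIs in the twi cells and 5 in the WT cells, with *Eomes* the most abundant in both (34 and 3 UMIs), and *Klra7*, *Klra8* and *Klra4* were at 0 in WT. Without the genes of the rule the NK sums were 52 and 4, or 76.3 and 149 CPM (UMIs per 1000000 UMIs of the summed cells). The 5 B cell markers in the files summed to 23 and 5 UMIs, and to 7 and 2 without the genes of the rule (10.3 and 74.3 CPM). The 3 CD4 T cell markers summed to 4 and 1, and the 2 γδ T cell markers to 2 and 0.

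The microglia and macrophage markers stood apart. These 9 genes summed to 530 UMIs in the 165 twi cells and 241 in the 7 WT cells. A single WT cell held 233 of the 241, with 30, 31 and 35 UMIs of the complement genes *C1qa*, *C1qb* and *C1qc*, and 257 of *Cst3* in a total of 5606 UMIs. This cell also carried 1 UMI each of *Cd8a* and *Cd8b1*, 4 of *Cd3e* and 3 of *Gzmb*. In twi, 1 cell held 417 of the 530 UMIs, 413 of them *Lyz2*, the macrophage and granulocyte lysozyme. A doublet caller (scrublet) marked 5 WT and 3 twi cells in all and none of the effector CD8 cells. Results that rest on these cells are given with and without the 1 WT and 2 twi cells that held at least 10 such UMIs. Neutrophil markers summed to 50 UMIs in WT and 308 in twi (1856 and 452 CPM). Erythroid markers summed to 42 and 531 (1559 and 779 CPM), and platelet markers were at 0 in both.

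Effector CD8 cells with a low interferon sum made up 0.551% of WT cells (0.222 to 1.13, exact Clopper-Pearson) and 13.7% of twi cells (11.8 to 15.7), a ratio of 24.8 (11.7 to 52.7). When every cell was first thinned to 1500 UMIs, 2 of 1008 WT and 156 of 1072 twi cells met the rule, a ratio of 73.3 (18.2 to 295). Among cells with a Y-linked transcript and no *Xist* the ratio was 10.4 (3.97 to 27.0), with 5 of 487 WT and 22 of 207 twi cells. Not all CD8 cells followed this size of difference. CD8 cells that met the other criteria but lacked the effector transcripts or *Ccl5* numbered 85 in WT (6.69%) and 121 in twi (10.0%), and their share was 1.50 times as high in twi (1.15 to 1.96). CD8 cells that met every criterion but the interferon limit numbered 0 in WT, which allows a share of up to 0.236% counted as 3 cells of 1271 (the exact Clopper-Pearson upper limit is 0.290%), and 51 in twi (4.23%). Of the CD8 cells that met the remaining criteria, the effector cells with a low interferon sum were 47.4% in twi (42.1 to 52.8) and 7.45% in WT (3.05 to 14.7).

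The thresholds divided a continuum. In twi, 5 cells had just the 2 *Ccl5* UMIs needed and 11 otherwise matching cells had 1, and 35 cells had exactly 1 UMI over *Cxcr6*, *Gzmk* and *Gzmb* where 37 had none. Of the twi cells, 87 had an interferon sum of 0, 44 of 1, 22 of 2 and 12 of 3, and 8 otherwise matching cells had 4. The WT cells had sums of 0 (6 cells) or 1 (1 cell). A further 43 twi and 13 WT cells met all else but had no *Cd8a* or *Cd8b1* UMI.

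The effector transcripts were uneven between and within the libraries (the plot of single cells shows 6 of them). *Cxcr6* was found in 152 of 165 twi cells (a median of 2 UMIs, from 0 to 20) and in 2 of 7 WT cells (1 and 4 UMIs), at 707 CPM (UMIs per 1000000 UMIs of the summed cells) in twi (645 to 773, exact Poisson) and 186 CPM in WT (60.3 to 433). *Ccl5* was found in all cells, as the rule required. Its WT values were 4, 18, 22, 39, 112, 131 and 143 UMIs, and its twi values ran from 2 to 353 with a median of 25, so that the libraries overlapped throughout. Summed, *Ccl5* stood at 8362 CPM in twi (8146 to 8582) and 17413 CPM in WT (15873 to 19063). *Gzmb* was found in 74 twi cells (475 CPM, 425 to 530, at most 28 UMIs in 1 cell) and 6 WT cells (446 CPM, 230 to 778, at most 4). *Gzmk* was found in 51 twi cells (142 CPM, 115 to 174, at most 13) and 3 WT cells with 1 UMI each (111 CPM, at most 326). Cells gated on B cell transcripts give the background of free RNA: there *Cxcr6* was found in 2.68% of 149 twi cells, *Gzmb* in 3.36% and *Gzmk* in none, at a median of 2202 UMIs per cell against 3874.

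**Figure D1:**
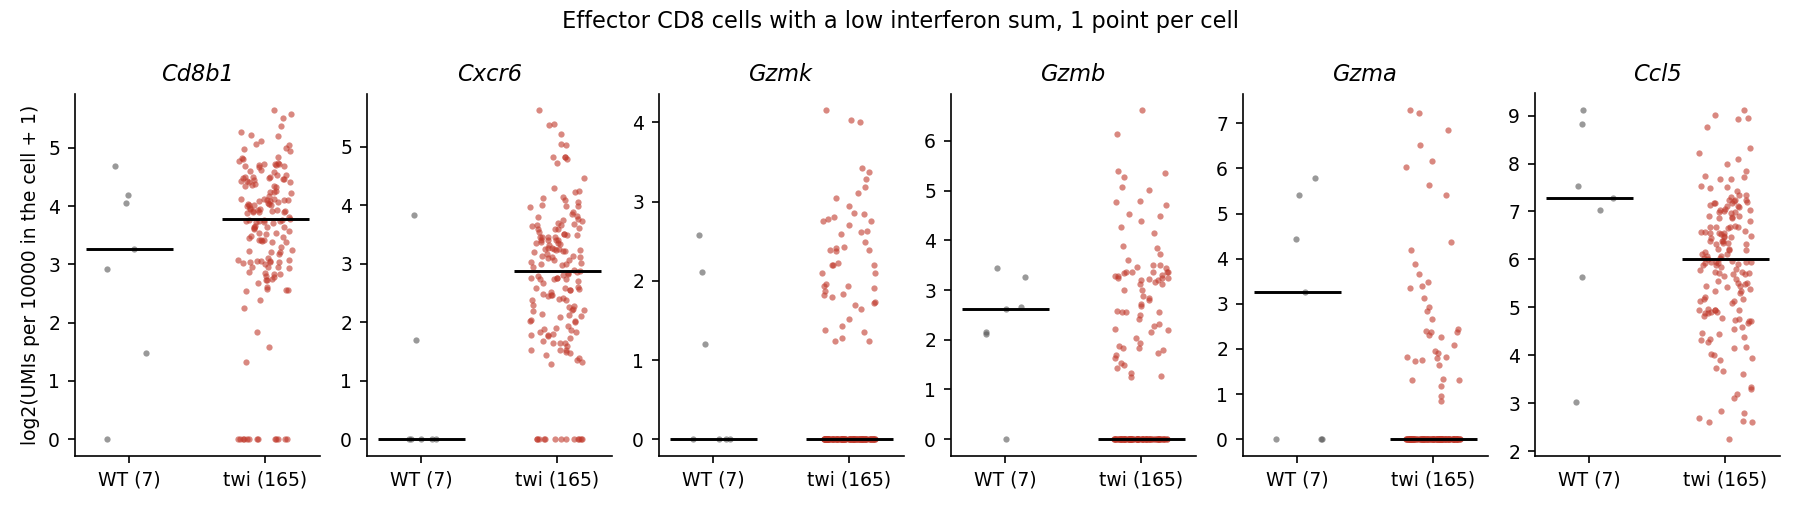
Each point is 1 effector CD8 cell, 7 WT and 165 twi, and the black bar is the median; the vertical axis is log2(UMIs of the gene per 10000 UMIs of the cell + 1), with its own range in each panel. The WT cells lie within the range of the twi cells for *Gzmb* and *Gzmk*, the highest WT cell for *Ccl5* (112 of 2019 UMIs) lies just above all twi cells, and *Cxcr6* is at 0 in 5 of 7 WT cells and 13 of 165 twi cells.

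Granzyme A was not used to choose the cells, and its UMIs were uneven among them. *Gzma* was found in 40 of 165 twi cells (24.2%, 17.9 to 31.5) and in 4 of 7 WT cells, which held 1, 11, 12 and 16 UMIs. In twi, 9 cells held 409 of its 473 UMIs, with 107 in the highest, and in most cells that carried it the count was low. Its summed level was 694 CPM in twi (633 to 759) and 1485 CPM in WT (1061 to 2022). At 1500 UMIs per cell, 12.8% of 148 twi effector cells carried it, against 9.80% of 51 interferon-high CD8 cells and 4.32% of 139 B-gated cells. It was carried by 3.81% of 105 non-effector CD8 cells, those that lacked the effector transcripts or the *Ccl5* needed. The ratio of variance to mean was ranked at that depth in the 148 twi cells over 1882 genes, without genes of the rule such as *Ccl5*. The median ratio was 1.04, where counting error alone gives a value of 1, and *Gzma* had the third highest of the genes ranked (15.6). Only *Lyz2* (40.8, of which 1 cell held most UMIs) and the nuclear RNA *Malat1* (20.3) were above it. *Actb* (8.51), the interferon-inducible *Ifi27l2a* (7.04), *Lgals1* (5.32) and the heat shock gene *Hspa1a* (5.12) followed.

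*Gzma* and *Gzmk* lie side by side. In the mm10 annotation (GENCODE vM21), *Gzma* spans chr13:113093825-113100981 and *Gzmk* chr13:113171608-113225908, both on the minus strand with 70626 bases between them, whereas *Gzmb* spans chr14:56258838-56262260, also on the minus strand. The 250 bases before the RefSeq transcription start of each gene (GRCm38.p6, written 5′ to 3′ on the gene's strand) are shown because the granzymes divide the cells below. Capitals mark matches, on either strand, to 2 short motifs of factors known in CD8 T cells, the Runx core TGTGGT and the T-box core AGGTGT (bound by T-bet and Eomes), which share no letters where they match.
Gzmk: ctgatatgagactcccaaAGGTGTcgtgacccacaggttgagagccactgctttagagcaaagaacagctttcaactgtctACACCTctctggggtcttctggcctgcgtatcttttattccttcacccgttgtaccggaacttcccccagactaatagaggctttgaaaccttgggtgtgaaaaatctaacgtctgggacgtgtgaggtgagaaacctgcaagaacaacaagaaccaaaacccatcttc
Gzma: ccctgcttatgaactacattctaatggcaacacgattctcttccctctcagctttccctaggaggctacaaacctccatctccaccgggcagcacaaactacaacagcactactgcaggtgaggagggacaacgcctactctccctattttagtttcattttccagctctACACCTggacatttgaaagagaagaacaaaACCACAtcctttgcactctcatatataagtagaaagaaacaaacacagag
Gzmb: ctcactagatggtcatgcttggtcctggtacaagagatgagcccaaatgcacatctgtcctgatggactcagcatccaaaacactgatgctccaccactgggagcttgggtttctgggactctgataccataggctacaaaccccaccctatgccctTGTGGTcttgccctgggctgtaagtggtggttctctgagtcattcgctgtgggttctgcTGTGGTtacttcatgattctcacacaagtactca
The *Gzmk* window (chr13:113180966-113181215) held 2 T-box matches, 232 and 169 bases before the start. The RefSeq start lies inside the longer GENCODE gene. The *Gzma* window (chr13:113100982-113101231) held 1 T-box match and 1 Runx match, 80 and 50 bases before the start, and the *Gzmb* window (chr14:56262335-56262584) held 2 Runx matches, 93 and 34 bases before it. Of 32851 promoter windows of this length, 14.0% held a Runx match and 11.8% a T-box match. These are letter matches, not measured binding.

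The twi effector cells fell into 4 classes by their other 2 granzymes. *Gzmk* without *Gzmb* was found in 18 cells, *Gzmb* without *Gzmk* in 41, both in 33 and neither in 73. Among *Gzmk* cells 64.7% carried *Gzmb*, against 36.0% of cells without *Gzmk*. Both genes belong to the rule and cells with neither entered through *Cxcr6* alone, so the rule shapes these shares and nothing is read from them about how the granzymes associate. Depth did not order the classes: in the shallowest, middle and deepest groups of 55 cells, *Gzmk* was found in 14, 23 and 14 cells, *Gzmb* in 25, 25 and 24, and both in 7, 17 and 9. At 1500 UMIs per cell 13 of 148 cells carried both. In WT, 3 cells had *Gzmb* alone, 3 had both, 1 had neither and 0 had *Gzmk* alone.

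*Gzmk* cells (18 cells, 67034 UMIs) and *Gzmb* cells (41 cells, 170279 UMIs) of the twi library were compared over the 560 genes whose mean reached 200 CPM. Past 2-fold, 12 genes were higher in *Gzmk* cells (2.14% of those tested) and 10 were lower (1.79%), and the median gene differed by 0.02 on the log2 scale. Of the 10 lower genes 7 had at most 10 UMIs in the *Gzmk* cells, and of the 12 higher genes none did. *Gzma* headed the first group at 1372 CPM in *Gzmk* cells and 294 CPM in *Gzmb* cells, a ratio of 4.67 (3.28 to 6.73). Cells with both granzymes were higher still (2200 CPM) and cells with neither were lowest (43.3 CPM, with no *Gzma* at 1500 UMIs per cell). This difference rested on few cells, since 2 of 18 *Gzmk* cells held 86 of 92 *Gzma* UMIs and 1 of 41 *Gzmb* cells held 31 of 50. It was reversed among cells with *Xist* and no Y transcript (8 *Gzmk* and 30 *Gzmb* cells, 5 and 45 UMIs, a log2 ratio of -0.74) and near 0 when cells were thinned before the classes were set (-0.08).

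Inflammasome adaptor *Pycard* (ratio 2.98, 1.76 to 5.07), the calcium-binding *S100a13* (2.54, 1.51 to 4.28) and *S100a11* (2.03, 1.43 to 2.86), the cytidine deaminase *Apobec3* (2.12, 1.19 to 3.72), the respiratory chain gene *Ndufa6* (2.05, 1.30 to 3.22) and *Ifi27l2a* (2.02, 1.68 to 2.43) were at least 2-fold higher in *Gzmk* cells. *Itga4*, the α4 integrin chain used to enter the brain, stood at 403 against 211 CPM (1.91, 1.11 to 3.23). *Gm10260* (3.48), which RefSeq lists as a pseudogene of a ribosomal protein gene, and *Gm42418* (3.16), which RefSeq lists as an 18S rRNA-related sequence, were also higher, but 20 of 48 and 31 of 51 of their *Gzmk* cell UMIs came from 1 cell each. *Pycard* was detected in 13 of 18 *Gzmk* and 20 of 41 *Gzmb* cells, with 22 of 33 cells carrying both. The direction of *Pycard* (log2 ratio -0.37), *Apobec3* (-1.59) and *Ifi27l2a* (-0.96) did not hold in the 2 *Gzmk* and 3 *Gzmb* cells with a Y transcript and no *Xist*.

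On the other side, *Gzmb* cells had more of the chemokine *Ccl4* (493 against 119 CPM, ratio 0.242, 0.101 to 0.499), the survival factor *Bcl2* (863 against 254, 0.294, 0.167 to 0.487), *Klf2* (752 against 283, 0.377, 0.220 to 0.613), a transcription factor of quiescent and recirculating T cells, and *Nfkbia* (352 against 134, 0.381, 0.166 to 0.773), an NF-κB inhibitor and target. *Ier5* (0.277), *Jak1* (0.479) and *S100a4* (0.479) were lower in *Gzmk* cells as well. In the 2 and 3 cells with a Y transcript and no *Xist*, *Nfkbia* (log2 ratio 0.37), *Jak1* (1.22) and *Psap* (1.22) were on the other side, and *S100a4* (0.11) was so when cells were thinned before the classes were set. *Ccl4* came from 15 of 41 *Gzmb* cells with 26 of 84 UMIs in 1 of them, and its log2 ratio turned to 1.94 when cells were thinned before the classes were set. *Bcl2* was steadier, carried by 34 of 41 *Gzmb* cells and 10 of 18 *Gzmk* cells. *Bcl2* stood at 519 CPM in cells with both granzymes and 1054 in cells with neither, and *Klf2* at 512 and 710. *Lyz2*, *Cst3* and the lysosomal *Psap* were lower in *Gzmk* cells as well, but 2 *Gzmb* cells held at least 10 macrophage UMIs. Without them the log2 ratio was 0.05 for *Lyz2*, -0.23 for *Cst3* and -0.91 for *Psap*.

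The lists are read against 2.14% of all genes higher and 1.79% lower. Of 6 cytotoxic granule genes tested, 1 was at least 2-fold higher (*Gzma*) and none lower, with a median of -0.03 (log2), and *Nkg7*, a granule membrane gene, was at 2700 and 2637 CPM. Of 7 interferon-stimulated genes 1 was higher (*Ifi27l2a*), with a median of 0.32. Of 9 integrin and residence genes none passed 2-fold in either direction. Of 3 naive and memory genes 2 were lower (*Klf2* and *Bcl2*), with a median of -1.38 and a ratio of summed levels of 0.683 (0.565 to 0.820). The NK and innate-like receptors had none past 2-fold of 3 tested and a ratio of summed levels of 0.710 (0.578 to 0.866). Of 12 immediate early genes, which T cells induce within minutes of a stimulus or of dissociation, 1 was lower (*Nfkbia*) and 10 lay below 0, with a median of -0.35. The summed immediate early level was 5863 CPM in *Gzmk* cells and 8063 CPM in *Gzmb* cells (ratio 0.727, 0.648 to 0.814).

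**Figure D2:**
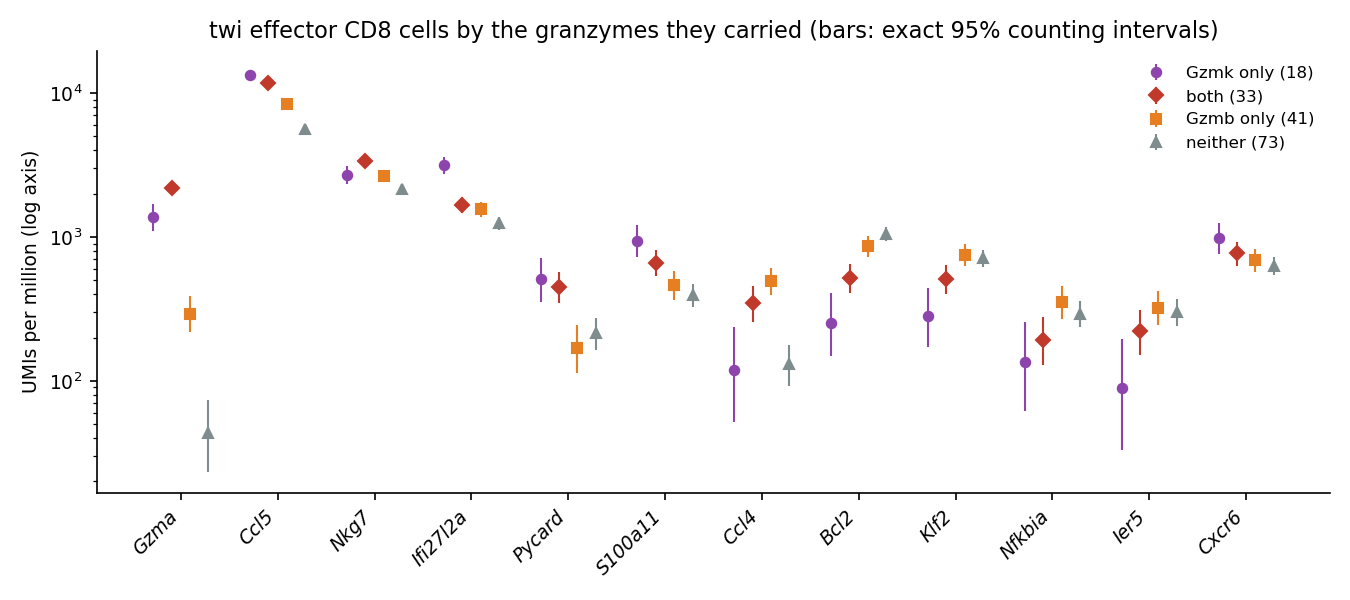
Points give CPM on a log axis for 12 genes in the twi effector CD8 cells with *Gzmk* only (18 cells), both (33), *Gzmb* only (41) and neither (73), with exact 95% counting intervals. *Gzma* runs from 43.3 CPM in cells with neither to 2200 CPM in cells with both, while *Bcl2* runs the other way, from 1054 to 254 CPM in *Gzmk* only cells.

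Set beside other CD8 cells of the same twi brains, the effector cells differed from non-effector CD8 cells in a set of genes that the rule did not use. Non-effector cells missed the effector criterion, the *Ccl5* criterion or both, and were not free of these transcripts. Of the 55 with *Xist* alone, 21 carried *Cxcr6* and 34 *Ccl5*. Of the 20 with a Y transcript alone, 2 and 11 did. Over 542 genes, 16 were at least 2-fold higher (2.95%) and 9 lower (1.66%). Of 9 naive and memory genes tested, 7 were at least 2-fold lower, with a list median of -1.56 against 0.07 over all genes. Some of these genes reached the mean of 200 CPM only through the non-effector cells, so the filter shapes this count and median. Summed without the filter over the 16 listed genes, the level was 3375 against 6380 CPM, a ratio of 0.529. *Ccr7*, the lymph node homing receptor, stood at 32.3 CPM in effector and 382 CPM in non-effector cells (ratio 0.0844, 0.0515 to 0.132). *Dapl1* followed (33.7 against 389 CPM), then the stem-like transcription factors *Tcf7* (106 against 347) and *Lef1* (142 against 421), the IL-7 receptor *Il7r* (129 against 391), *Klf2* (637 against 1380) and *Satb1* (139 against 294). *Bcl2* did not differ by 2-fold (814 against 845 CPM). The glucocorticoid-induced *Tsc22d3* was also lower (166 against 570).

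Higher in the effector cells were *Gzma* (694 against 39.4 CPM, ratio 17.6, 10.9 to 30.5), *S100a6* (1210 against 306, 3.96, 3.29 to 4.79), the β1 integrin *Itgb1* (436 against 118, 3.69, 2.73 to 5.07), *Id2*, a regulator needed by effector CD8 cells (1254 against 366, 3.43, 2.89 to 4.09), and the chemokine *Xcl1*, which attracts cross-presenting dendritic cells (336 against 118, 2.84, 2.09 to 3.93). *Lgals1* (2.76), *Rgs1* (2.58), *Ly6a* (2.73), *Ly6c1* (2.81) and the long RNA *AW112010* (2.49) were also past 2-fold. *Xcl1* was carried by 79 of 165 effector and 14 of 121 non-effector cells, 1 of which held 27 of the 51 UMIs. Of 6 cytotoxic granule genes, 2 were higher and none lower (*Gzma* and *Nkg7*, the latter 2581 against 1112 CPM). Of 10 S100, annexin and galectin genes 3 were higher and none lower. Here and below that list also holds *Crip1*, a gene of none of these families. Of 7 genes of the integrin and residence list 3 were higher (*Itgb1*, *Rgs1* and the chemokine *Xcl1*, which is no integrin). *Cd69*, the early activation and residence marker, did not differ by 2-fold (log2 ratio of -0.07).

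Against the 51 interferon-high CD8 cells the effector cells had few genes past 2-fold outside the interferon genes. Over 579 genes 2 were at least 2-fold higher (0.345%) and 19 lower (3.28%). Of 44 interferon-stimulated genes listed, 17 outside the rule reached the mean of 200 CPM, some of them only through the interferon-high cells. Of these 17, 14 were at least 2-fold lower and all lay below 0 (median -1.29, against -0.04 over all genes). The filter thus shapes this count. Summed without it over the listed genes outside the rule, the ratio was 0.474 (0.456 to 0.493). The rule split these cells on 4 genes of the same response, so a lower list is in part given by the rule. *Isg15* stood at 213 against 1484 CPM (ratio 0.143, 0.118 to 0.173), *Irf7* at 135 against 408, *Zbp1* at 175 against 536 and *Isg20* at 111 against 376. *Isg15* was still found in 79 of 165 cells of the low group. The 2 higher genes were *Gzma* (694 against 150 CPM, 4.63, 3.39 to 6.49) and the macrophage gene *Lyz2*, with 413 of its 471 UMIs in 1 cell. Without the macrophage-bearing cells the log2 ratio of *Lyz2* was 1.13. *Gzma* was carried by a similar share of both, 24.2% of the 165 effector and 27.5% of the 51 interferon-high cells, and its higher sum rested on the 9 effector cells that held 409 of 473 UMIs. *Gzmb* stood at 843 CPM in the interferon-high cells and 475 in the low group, *Cxcr6* at 568 and 707, and *Gzmk* at 150 and 142. Of 11 immediate early genes none passed 2-fold and all lay above 0 (median 0.28). The interferon-high cells were deeper (a median of 5592 UMIs per cell against 3874), and a sum of 4 UMIs is reached more readily in a deep cell. At 1500 UMIs per cell only 9 cells reached it.

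**Figure D3:**
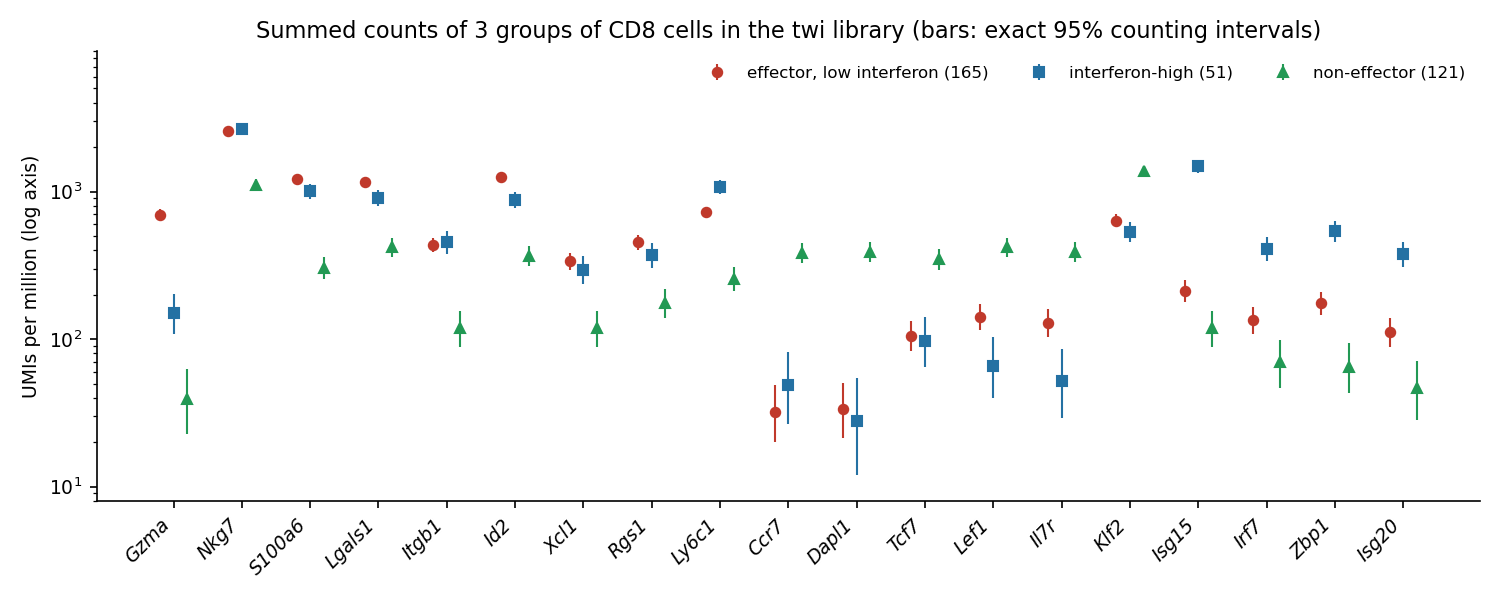
Points give CPM on a log axis in the twi library for effector CD8 cells with a low interferon sum (165 cells), interferon-high CD8 cells (51) and non-effector CD8 cells (121), with exact 95% counting intervals. *Ccr7*, *Dapl1*, *Tcf7*, *Lef1* and *Il7r* are highest in non-effector cells, and *Isg15*, *Irf7*, *Zbp1* and *Isg20* in interferon-high cells, while *Gzma* is highest in the low interferon effector cells.

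Other effector programs were sparsely detected in the twi cells. *Ifng* was carried by 33 of 165 cells (82.1 CPM), *Prf1* by 12 (19.1 CPM), *Tbx21* by 31 (49.9 CPM), *Eomes* by 26 (49.9 CPM) and *Tox* by 29 (57.2 CPM). The checkpoint receptor *Pdcd1* was found in 9 cells (24.9 CPM) and *Lag3* in 8 (13.2 CPM). The residence integrins *Itgae* and *Itga1* were found in 20 and 22 cells, *Cd69* in 87, the tissue exit receptor *S1pr1* in 28, and *Klrg1*, a marker of terminal effector cells, in 7. In the WT cells *Ifng* was found in 4 of 7 (408 CPM, 204 to 731), *Tbx21* in 4 (223 CPM, 81.8 to 485), *Klrg1* in 3 (223 CPM, 81.8 to 485) and *Prf1* in 1. A single WT cell held 3 of 6 *Tbx21* and 4 of 6 *Klrg1* UMIs, and without it the WT levels were 125 and 83.2 CPM, and another held 5 of 11 *Ifng* UMIs (251 CPM without it). In WT, *Itgae* and *Ccr7* had 0 UMIs. A 3′ count at this depth misses many low transcripts, so absence in a cell is not absence of expression.

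The twi and WT effector cells were compared over 613 genes. Past 2-fold, 24 were higher in twi (3.92%) and 89 were lower (14.5%), with a median over all genes of -0.15 (log2). Small counts stand behind these numbers: of the 24 higher genes 21 had at most 10 UMIs in the WT cells, and of the 89 lower genes 33 did. The largest differences toward WT were the macrophage transcripts of 1 cell. *C1qa* had 30 WT UMIs, *C1qc* 35, *C1qb* 31 and *Cst3* 260, of which that cell held 30, 35, 31 and 257. *Btg2* (45 WT UMIs) and *Ctsd* (42) had 33 and 30 UMIs in 1 cell. Without the 3 cells that held macrophage transcripts, 600 genes were tested, 17 were higher and 86 lower, and *Btg2* had a log2 ratio of 0.04.

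*Bcl2* was the most different gene toward twi over all cells, and second to *Ifi27l2a* without the macrophage-bearing cells. It had 555 UMIs in 131 of 165 cells (814 CPM) and 2 UMIs in 2 of 7 WT cells (74.3 CPM), with a 95% interval of the ratio from 3.02 to 90.7. In the non-effector CD8 cells of WT it stood at 670 CPM, close to the 845 CPM of twi, so the low level was that of the 7 WT effector cells and not of WT CD8 cells in general. Interferon-stimulated genes were higher as a group: of 6 tested, 4 were past 2-fold and all 6 lay above 0, with a median of 1.42, and the listed genes, those of the rule left out, summed to 7711 CPM in twi and 3119 CPM in WT (ratio 2.47, 1.99 to 3.10). *Ifi27l2a* stood at 1602 against 223 CPM (7.19, 3.29 to 19.6), the growth regulator *Slfn2* at 422 against 74.3 (5.69, 1.56 to 47.2), *Ly6a* at 544 against 149 (3.66, 1.42 to 13.5) and *Bst2* past 2-fold (log2 ratio 1.14). The cells were chosen for a low interferon sum in both libraries. The median turned to -0.28 when cells were thinned before the rule, which left 2 WT cells with 9 UMIs of the list, and the ratio of summed levels was then 3.34. *Cox7a2l* (507 against 111 CPM), *Skap1* (334 against 111) and the retrogene *Gm6133* (351 against 111) each had 3 WT UMIs, and *Slfn2* had 2, both in 1 cell. None of these 4 kept its direction when cells were thinned before the rule, with log2 ratios of -0.031 for *Cox7a2l*, -1.21 for *Skap1*, -1.49 for *Gm6133* and -0.19 for *Slfn2*, from 1 or 2 WT UMIs each.

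Toward WT, apart from the macrophage transcripts, *S100a10* stood at 2488 CPM in WT and 838 in twi (ratio 0.337, 0.261 to 0.440). A single WT cell held 38 of its 67 UMIs, and without that cell the WT level was 1509 CPM. The same cell held 42 of 85 UMIs of *Lgals1* and 45 of 76 of *Crip1*. Without that cell the WT levels of the 2 genes were 2237 and 1613 CPM. In twi, without the macrophage-bearing cells, their levels were 1174 and 1404 CPM. The chemokine *Ccl3* was at 965 and 29.3 CPM (0.0304, 0.0161 to 0.0566), from 3 WT cells with 5, 10 and 11 UMIs. The cell with 10 was the one rich in macrophage transcripts, and without the macrophage-bearing cells the log2 ratio was -4.65. In twi, 13 of 165 cells carried it with at most 3. Neutrophil markers outside the rule were also lower in twi (ratio of summed levels 0.248, 0.143 to 0.460), as were erythroid markers (0.499, 0.364 to 0.701). The list counts stand beside 14.5% of all genes lower and 3.92% higher, with a median of -0.15. Of 12 S100, annexin and galectin genes tested, 5 were at least 2-fold lower in twi and none higher (median -0.56), and of 12 immediate early genes 5 were lower, none was higher and all 12 lay below 0 (median -0.87). Of 6 cytotoxic granule genes 2 were lower (*Gzma* and *Ctsd*, the latter with 30 of 42 WT UMIs in the macrophage-rich cell and a log2 ratio of 0.20 when cells were thinned before the rule), and of 6 chemokine and cytokine genes 2 (*Ccl3* and *Ifng*). Without the macrophage-bearing cells, 6 of 12 S100, annexin and galectin genes were lower (median -0.94), 3 of 12 immediate early genes (-0.74), 1 of 6 cytotoxic granule genes (0.03) and 2 of 6 chemokine and cytokine genes, with 1 of the 6 higher (-0.43). With the 3 macrophage-bearing cells left out, *S100a10* (ratio 0.275, 0.213 to 0.361), *Lgals1* (0.302, 0.240 to 0.383), *Gzma* (0.376, 0.272 to 0.534) and *Crip1* (0.405, 0.319 to 0.520) led the genes with at least 25 UMIs that were lower in twi. With the macrophage-bearing cells kept, and only cells with a Y transcript and no *Xist* compared (22 in twi and 5 in WT), none of the 4 was at least 2-fold lower in twi. The log2 ratio of *S100a10* was -0.60. *Gzma* turned and stood at 3419 CPM in twi and 1179 in WT, *Lgals1* at 2602 and 3116, and *Crip1* at 2901 and 3032. Over the 648 genes tested among these Y cells 5.56% were higher and 14.8% lower, with a median of -0.07. Of the 12 S100, annexin and galectin genes 1 was higher and 1 lower (median 0.12, ratio of summed levels 1.04), while the immediate early median was -0.76 and the interferon-stimulated median 1.88.

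**Figure D4:**
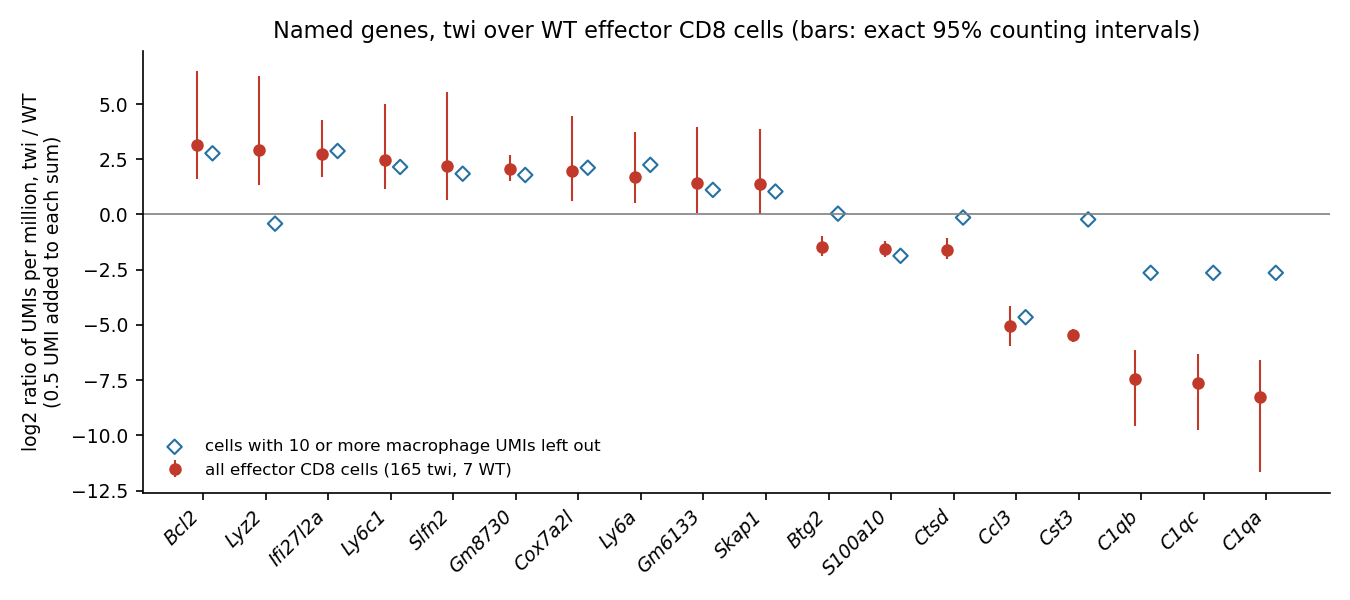
Log2 ratios (twi over WT, 0.5 UMI added to each sum) of the most different genes, 10 higher and 8 lower: circles with exact 95% counting intervals for all cells (165 twi, 7 WT), and open diamonds without the 3 cells that held at least 10 macrophage UMIs (163 twi, 6 WT). Without those cells *Cst3*, *Btg2* and *Ctsd* move to near 0 and *Lyz2* turns to -0.42, while *Bcl2*, *Ifi27l2a*, *S100a10* and *Ccl3* keep their side.

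The sex of the pooled animals differed between the libraries and divided the twi effector cells. *Xist*, transcribed from the inactive X, was found in 0 of 1271 WT cells, while 487 WT cells carried a Y-linked transcript (*Ddx3y*, *Eif2s3y*, *Kdm5d* or *Uty*). Among the twi effector cells 98 carried *Xist* alone, 22 a Y transcript alone, 4 both and 41 neither, and among the 7 WT effector cells 5 carried a Y transcript and none *Xist*. Of twi cells with 1 kind alone, *Xist* cells were 81.7% of the effector cells (73.6 to 88.1), 73.3% of non-effector CD8 cells, 60.0% of B-gated cells and 72.6% of all twi cells. The twi pool thus held at least 1 animal of each sex and the WT cells showed males only, so genotype, sex and individual animal cannot be told apart in a comparison of the libraries. The same holds within twi: with 2 to 3 animals in the pool, *Xist* and Y cells may each come from 1 animal, and sex cannot be told apart from any other difference between those animals, their genetic background included.

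Within the twi library the cells with *Xist* and those with a Y transcript differed in *Gzma* by more than *Gzma*, *Gzmb* or *Gzmk* differed between the libraries. Its level was 155 CPM in the 98 *Xist* cells (121 to 196) and 3419 CPM in the 22 Y cells (3009 to 3869), and 1485 CPM in the WT cells. It was carried by 22 of 98 and 9 of 22 cells, and without the highest Y cell (107 UMIs) the Y level was 2163 CPM. In interferon-high CD8 cells the 2 levels were 79.4 CPM (14 UMIs in 29 cells, 8 of them in 1 cell) and 374 CPM (11 UMIs in 6 cells). In non-effector cells they were 31.6 CPM (7 UMIs in 55 cells) and 69.1 CPM (5 UMIs in 20 cells), and without the Y cell that held 4 of the 5 the Y level was 14.0 CPM, so no direction is read there. *Ccl5*, a gene of the rule, stood at 7037 CPM in *Xist* cells, 16563 in Y cells and 17413 in WT cells. Its median was 28.5 UMIs per *Xist* cell and 27 per Y cell. Without the highest Y cell (353 of 1216 UMIs) the Y level was 12965 CPM. *Gzmk* stood at 69.6 and 245 CPM, *Gzmb* at 422 and 831, and *Cxcr6* at 756 and 490. A single Y cell held 28 of the 61 *Gzmb* UMIs and 6 of the 18 *Gzmk* UMIs, and without it the Y levels were 496 and 180 CPM. The Y cells had fewer UMIs each, at a median of 2699 against 4258.5.

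Over 579 genes, 6 were at least 2-fold higher in *Xist* cells (1.04%) and 18 lower (3.11%). *Ly6c1*, which encodes a surface protein of memory and activated CD8 cells, was found in 75 of 98 *Xist* cells and 2 of 22 Y cells (981 against 27.2 CPM, ratio 36.0, 9.91 to 298), while the neighbouring *Ly6c2* stood at 2691 and 2343 CPM. *Gm8730*, annotated as a processed pseudogene, followed the same split (4994 against 831 CPM, ratio 6.01, 4.66 to 7.89), and reads shared with its parent gene make its counts uncertain. *Xcl1* (352 against 81.7 CPM, 4.31) and the cyclin *Ccnd2* (570 against 232, 2.46) were also higher in *Xist* cells, and *Bcl2* stood at 882 against 463 CPM. Of 13 genes of the S100, annexin and galectin list, *Crip1* included, 7 were at least 2-fold lower in *Xist* cells. None was higher and all 13 lay below 0 (median -1.02 against -0.06 over all genes). *Lgals1* stood at 851 against 2602 CPM, *Crip1* at 1086 against 2901 and *S100a6* at 956 against 2193. Without the highest Y cell of each gene the Y levels were 2058, 2229 and 1973 CPM. *Lgals1* was found in 77.6% of *Xist* cells and 77.3% of Y cells.

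Genes named as different between the genotypes can be read against this split. *Gm8730* was higher in twi than WT effector cells (3926 against 928 CPM, ratio 4.23, 2.86 to 6.55), but twi cells with a Y transcript and no *Xist* were at the WT level (831 CPM), and their log2 ratio over WT Y cells was -0.11. *Ly6c1* (723 against 111 CPM in twi and WT) likewise had a log2 ratio of -2.11 over WT among Y cells, from 2 and 3 UMIs. The split was not limited to effector CD8 cells, since over all other cells *Gm8730* stood at 4219 CPM in twi *Xist* cells, 1117 in twi Y cells and 1546 in WT Y cells, and *Ly6c1* at 572, 58.0 and 58.9 CPM. The S100, annexin and galectin list, *Crip1* included, summed to 6283 CPM in twi *Xist* cells, 14724 in twi Y cells and 14109 in WT. By contrast *Ifi27l2a* was higher in both twi groups (1138 CPM in *Xist* cells and 1825 in Y cells) than in WT (223 CPM). *Bcl2* was too (882 and 463 against 74.3 CPM, the last from 2 UMIs), but it also differed with the split. Over all other cells *Bcl2* stood at 666 CPM in twi *Xist* cells, 353 in twi Y cells and 226 in WT Y cells, and *Ifi27l2a* at 900, 1121 and 541 CPM.

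**Figure D5:**
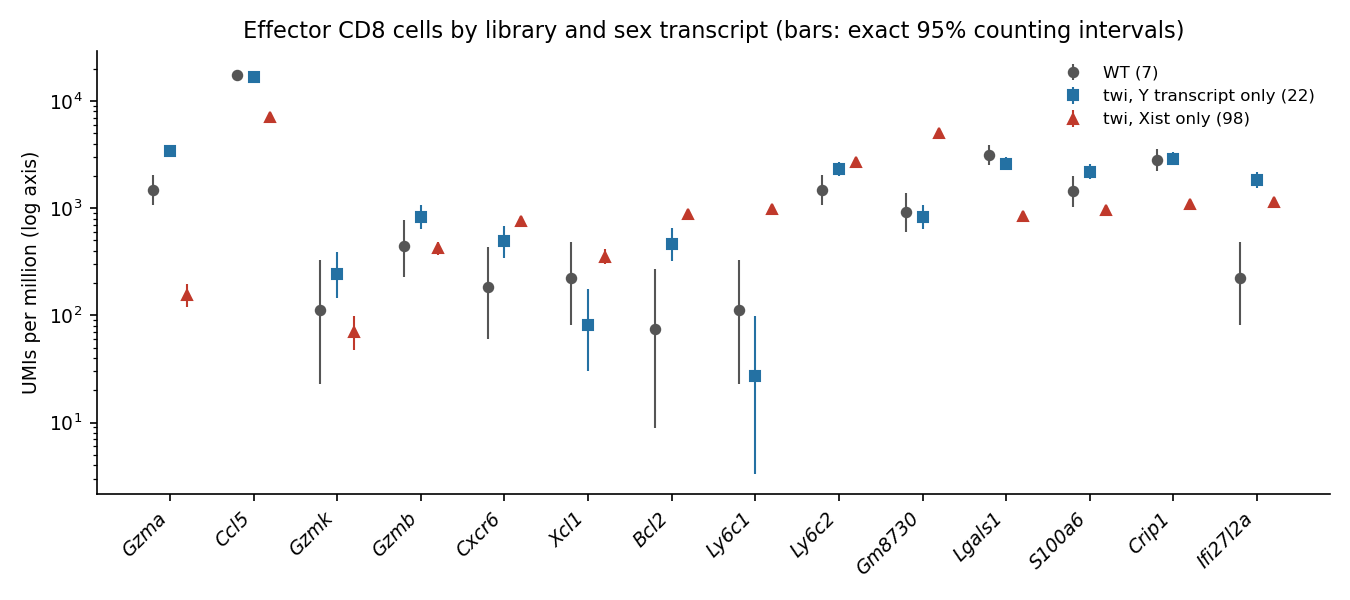
Points give CPM on a log axis for 14 genes in WT effector CD8 cells (7), twi effector CD8 cells with a Y-linked transcript and no *Xist* (22) and those with *Xist* and no Y-linked transcript (98), with exact 95% counting intervals. For *Ccl5*, *Gm8730*, *Lgals1* and *Crip1* the summed level of the twi Y cells lies near that of the WT cells and apart from the twi *Xist* cells. For *Ifi27l2a* both twi groups lie above WT. The highest Y cell of each gene held 353 of 1216 *Ccl5*, 54 of 191 *Lgals1* and 65 of 213 *Crip1* UMIs.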

How the data were processed

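The deposited files hold unnormalized counts of UMIs for every gene and barcode, made by the authors with Cell Ranger 2.1.1 on mm10 per the submitters' processing notes, for 1 library of CD45+ brain cells per genotype. The label of each library's protocol also names CD4+ cells as loaded, while its title gives CD45+. UMIs were summed over the cells of a group and divided by their total (CPM). CPM carry exact Poisson intervals, shares exact Clopper-Pearson intervals, ratios of CPM exact conditional intervals and ratios of shares a log-normal approximation (scipy 1.17.1), all at 95% and for counting error only. Genes reaching 200 CPM on average were compared, leaving out mitochondrial, sex and rule genes, with 0.5 UMI added to each sum for log2 ratios, and "higher" or "lower" in a count means past 2-fold. A gene can reach that mean through 1 group alone, so the counts and list medians are shaped by this filter. Named genes are the 10 largest ratios each way with at least 25 UMIs in the higher group (no ribosomal protein genes), list genes, rule genes and *Galc*. The members of the group and the gene lists were chosen with earlier results of these data known, and the comparison of *Xist* with Y cells was added after seeing the data. Of 371 listed genes 361 were in the files, and *Trac* and other receptor constant genes were not analysed here. *Jaml* and *Ifi209* were not used here. Some named genes are not reported here. Scrublet ran in scanpy 1.11.5. The steps were tested on simulated counts.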

Additional observations from a re-analysis of the deposited data

Results flagged for a closer look

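*Xist*, which is no part of the rule and was left out of the genes compared, was found in 102 of 165 twi effector CD8 cells (61.8%, 53.9 to 69.3, exact Clopper-Pearson) and in 0 of 7 WT cells. It drew attention because the signal lies outside the main measurement and above the WT library. Its part in the differences between the libraries was not tested.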

How the results depend on the processing

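No paired analysis was possible because each genotype had a single library. The effector CD8 share was higher in twi under every alternative run, with ratios of 73.3 at 1500 UMIs per cell and 10.4 among cells with a Y transcript and no *Xist*. The number of genes past 2-fold moved with the filter on low genes in all 5 comparisons. At a mean of 100 CPM and of 400 CPM in place of 200 CPM it was 374 and 44 for twi over WT, 93 and 9 for *Gzmk* over *Gzmb* cells, 45 and 7 against interferon-high cells, 54 and 11 against non-effector cells, and 98 and 12 for *Xist* over Y cells. At 1500 UMIs per cell before the rule it was 561 for twi over WT (2 WT cells), 46 for *Gzmk* over *Gzmb* and 155 against interferon-high cells. It was 64 for twi over WT with a *Ccl5* minimum of 1 UMI, 316 for *Gzmk* over *Gzmb* among Y cells and 61 among *Xist* cells, and 44 for *Xist* over Y cells with the mean of per-cell CPM.

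Under the alternatives, 847 of 960 log2 ratios of named genes lay within the counting interval of the main value, which is wide for low counts. Another 87 moved outside it, and 26 that were past 2-fold turned in sign. The filters at 100 and 400 CPM do not alter a gene's ratio, so their 100 values each could not move. Scrublet marked no effector CD8 cell, so its 40 values could not move either. For twi over WT at 1500 UMIs, *Slfn2* turned to -0.19, *Cox7a2l* to -0.031, *Gm6133* to -1.49, *Skap1* to -1.21, *Ctsd* to 0.20 and *Btg2* to 1.95, and the interferon-stimulated median to -0.28. The chemokine and homing receptor median was 0.051 with the lower *Ccl5* minimum, and *Lyz2* was -0.057 with an interferon sum under 2. Among Y cells *Ly6c1* was -2.11 and *Gm8730* -0.11, and without macrophage-bearing cells, a choice made after seeing the data, *Lyz2* was -0.42 and *Btg2* 0.037. For *Gzmk* over *Gzmb* at 1500 UMIs, *Gzma* was -0.083, *Gm42418* -0.21, *Ccl4* 1.94 and *S100a4* 0.11. Among Y cells *Gm42418* was -1.95, *Pycard* -0.37, *Apobec3* -1.59, *Ifi27l2a* -0.96, *Psap* 1.22, *Nfkbia* 0.37 and *Jak1* 1.22. Among *Xist* cells, also chosen after seeing the data, *Gzma* was -0.74 and *Gm42418* -0.59, and without macrophage-bearing cells *Lyz2* was 0.046 there and -0.77 for *Xist* over Y cells. The causes were not tested, and these subsets hold few cells. With the median gene ratio set to 1 in place of total UMIs, 35 genes were higher and 74 lower in twi. Depth limits the WT group most, since 7 cells held 26934 UMIs.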
